A study of Mus musculus with 8 samples.

Results

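The Usp17l genes of the mouse encode deubiquitinases, cysteine proteases that take ubiquitin off other proteins. They were followed here in RNA-seq of mouse embryonic stem cells (mESCs) after deletion of Setdb1, inhibition of G9a/GLP, or both. Every gene row whose symbol starts with Usp17l was a member: Usp17la, Usp17lb, Usp17lc, Usp17ld and Usp17le, 5 of the 24062 gene rows. The family was chosen with its counts in these libraries known. Its levels and ratios are therefore given as a description, without a test.

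All 8 libraries came from 1 line, the Setdb1 conditional knockout mESCs #33-6, in which 4-hydroxytamoxifen (4-OHT) triggers deletion of Setdb1. SETDB1 is a methyltransferase for histone H3 lysine 9 (H3K9), and UNC0642 is a catalytic inhibitor of G9a and GLP, the main enzymes for H3K9 dimethylation. WT mESCs carried the conditional alleles but received no 4-OHT. UNC0642-treated mESCs received 2 µM UNC0642 for 3 days, and Setdb1 KO mESCs were exposed to 800 nM 4-OHT over 5 days. The labels of the UNC0642-treated Setdb1 KO mESCs give 2 days of 800 nM 4-OHT followed by 3 days of 2 µM UNC0642, so the KO conditions differ in 4-OHT exposure by the labels. The study's methods describe only 1 exposure for deleting Setdb1 in this line, the longer one, so the exposure behind the combined condition is uncertain. No 4-OHT-treated cells without the deletion were analysed here, so 4-OHT and the deletion cannot be told apart. Each condition had 2 biological replicates, and total counts per library ranged from 11702590 to 26807807.

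Usp17la was first known as Dub1, a gene switched on early by interleukin-3, and Usp17lc as Dub2, a gene switched on by interleukin-2 in lymphocytes. RefSeq lists Usp17lb as Dub1a, Usp17ld as Dub2a and Usp17le as Dub3. In mESCs the family is better known from the 2-cell-like state, a transient state of rare cells in culture. Those cells transcribe genes of the 2-cell embryo, such as the Zscan4 family, together with the endogenous retrovirus MERVL and its long terminal repeat MT2_Mm. The retroviral repeat is recognised in many of those genes as an alternative promoter.

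The members lie on chromosome 7 in GRCm38 (GENCODE M21), in 2 groups within 1.613 Mb. Usp17ld (chr7:103249737-103252505, minus strand) and Usp17lc (chr7:103415072-103419880, plus strand) are 162.6 kb apart. The other group starts 1348 kb further on with Usp17le (chr7:104768049-104777470, minus strand). Usp17lb (chr7:104840257-104842603, minus strand) follows after 62.79 kb, and Usp17la (chr7:104857009-104862667, plus strand) after a further 14.4 kb. All 5 are annotated as protein coding. The pseudogene Usp17le-ps has no row in the count tables.

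RefSeq promoter sequence on GRCm38.p6, covering 250 bases before to 50 bases after each gene's start, was at hand for Usp17la, Usp17lb, Usp17lc and Usp17ld. Between pairs of these promoters, 87.32% to 96.76% of aligned bases were identical (6 pairs). The stretches around the TATA-like element are shown side by side, and a link between them and the levels of the members was not tested. Each runs 5′ to 3′ from 90 bases before the element, and the capitals mark the element itself:
Usp17ld: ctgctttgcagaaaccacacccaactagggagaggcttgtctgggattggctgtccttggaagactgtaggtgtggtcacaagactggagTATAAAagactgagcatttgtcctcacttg
Usp17lc: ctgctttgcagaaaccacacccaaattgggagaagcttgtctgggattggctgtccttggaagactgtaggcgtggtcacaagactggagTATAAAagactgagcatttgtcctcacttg
Usp17lb: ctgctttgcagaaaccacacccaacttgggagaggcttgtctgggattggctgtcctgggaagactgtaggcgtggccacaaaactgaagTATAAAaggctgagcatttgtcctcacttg
Usp17la: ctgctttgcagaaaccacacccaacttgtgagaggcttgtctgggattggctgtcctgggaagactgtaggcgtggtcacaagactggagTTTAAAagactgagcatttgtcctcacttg
They span chr7:103252586-103252705 (minus strand) for Usp17ld, chr7:103416518-103416637 (plus) for Usp17lc, chr7:104842585-104842704 (minus) for Usp17lb and chr7:104856880-104856999 (plus) for Usp17la. Those of Usp17ld and Usp17la lie upstream of the GENCODE gene, that of Usp17lb reaches into its first exon, and that of Usp17lc lies in the intron of its longer transcript and upstream of its shorter one.

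Of the 120 positions, 109 held the same base in all 4 genes. Pairs differed at 4 to 7 positions. The element reads TATAAA in Usp17lb, Usp17lc and Usp17ld and TTTAAA in Usp17la, and it starts 31, 88, 110 and 46 bases before the RefSeq start in Usp17lb, Usp17lc, Usp17ld and Usp17la. On either strand, TATAAA was present in 13.62% of the 32851 promoter entries of that table, and CCAAT, present in all 4 members, in 37.41%. GTNTAAAAG, chosen after these sequences were seen and overlapping the TATA-like element, was present in all 4 members and in 1.081% of entries. None of the 4 held TGANTCA (AP-1 type, 7.808% of entries), AGATAA (bound by factors of the GATA family, 11.18%), TAATCC (Otx and Obox type, 7.062%) or the longer Dux-type motif (0.03348%).

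The annotated transcripts of the members were 85.62% to 97.79% identical over 10 pairs, with Usp17lc and Usp17ld the most alike. At the read length of 150 bases, 29.41% of Usp17lc windows and 36.07% of Usp17ld windows occurred unchanged in another transcript, each time in the other gene of this pair. For Usp17la, Usp17lb and Usp17le the share was 1.276%, 2.271% and 0.8065%. Reads were counted with the default settings of TEtranscripts, and how these divided such reads between the members was not examined here. The split between Usp17lc and Usp17ld is therefore less certain than the other levels or the sum of the family.

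Setdb1, the deleted gene, had 169.5 and 127.3 CPM (counts divided by the library's effective size and multiplied by 1e6) in WT, 130.5 and 86.4 with UNC0642, 47.3 and 51.0 in Setdb1 KO, and 61.1 and 34.1 with both. Its KO libraries lay below its other libraries, without passing the test (log2 fold change -1.59 ± 0.44 SE, adjusted p = 0.1811 in Setdb1 KO, and -1.64 ± 0.44, adjusted p = 0.07459 with both, edgeR quasi-likelihood test). Reads from outside the deleted part would still count toward it.

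Summed over the 5 members, the family was low in WT mESCs and higher in all 6 other libraries. WT mESCs had 23 and 131 counts in replicates 1 and 2, which is 2.00 and 4.73 CPM. UNC0642-treated mESCs had 4156 and 3113 counts (195.4 and 112.0 CPM). Setdb1 KO mESCs had 1876 and 849 counts (79.4 and 46.7 CPM), and UNC0642-treated Setdb1 KO mESCs 4007 and 5657 counts (415.9 and 208.0 CPM). The 4 conditions did not overlap, and their order from low to high was WT, Setdb1 KO, UNC0642-treated, UNC0642-treated Setdb1 KO.

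The mean was 3.37 ± 1.93 CPM in WT mESCs, 153.7 ± 59.0 CPM with UNC0642, 63.1 ± 23.1 CPM in Setdb1 KO and 312.0 ± 147.0 CPM with both (SD, n = 2 each). Relative to WT mESCs the mean was 45.7-fold higher with UNC0642, 18.7-fold higher in Setdb1 KO and 92.7-fold higher in both together. These 3 ratios share the WT libraries. In bulk RNA, more cells that express the family and more RNA per such cell cannot be told apart. The lower UNC0642-treated Setdb1 KO library was 1.07-fold above the higher UNC0642-treated library. Replicates of a condition differed by 1.70-fold to 2.36-fold, replicate 1 being higher except in WT mESCs.

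**Figure D1:**
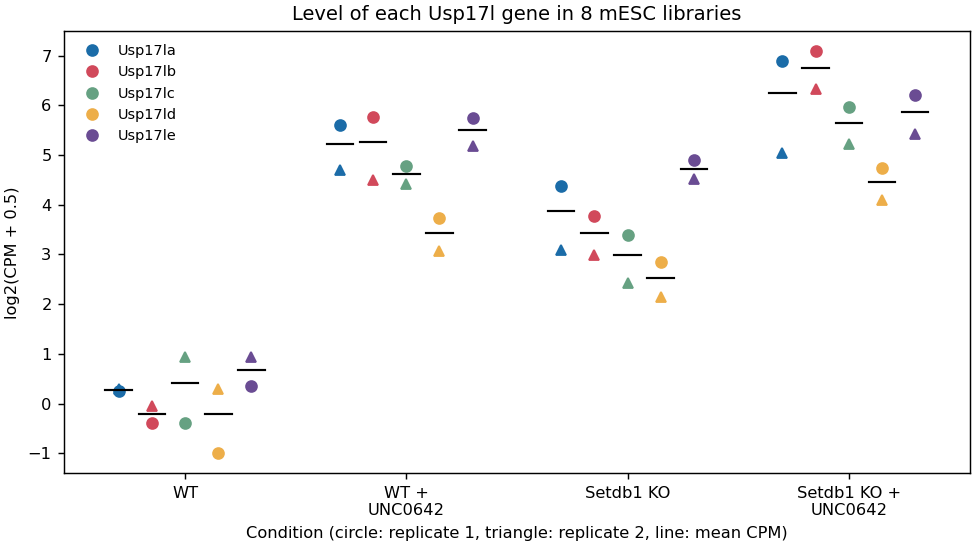
Level of each Usp17l gene as log2(CPM + 0.5) on the vertical axis in the 2 replicates of each condition, with circles for replicate 1, triangles for replicate 2 and lines at the mean CPM. All 5 genes lie lowest in WT mESCs and higher in Setdb1 KO than in WT libraries, and in each gene both UNC0642-treated libraries lie above both Setdb1 KO libraries.

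Usp17la, the Dub1 gene, was at 0.697 and 0.722 CPM in the WT libraries. It reached 48.0 and 25.3 CPM with UNC0642, 20.4 and 7.98 CPM in Setdb1 KO, and 119.0 and 32.6 CPM in UNC0642-treated Setdb1 KO mESCs. Outside WT, the last pair spread the most of any member and condition, from a level between those of the UNC0642-treated libraries to a level above both. The mean in UNC0642-treated Setdb1 KO mESCs was 106.9-fold that in WT mESCs.

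Usp17lb (Dub1a) was among the lowest members in WT mESCs, with 3 and 13 counts (0.261 and 0.469 CPM). It had 54.2 and 22.0 CPM with UNC0642 and 13.1 and 7.48 CPM in Setdb1 KO. With both it had 135.3 and 79.6 CPM, 294.2-fold the WT mean and 10.4-fold the Setdb1 KO mean, the highest of the 5 members in both ratios. No condition overlapped another for this gene.

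Usp17lc (Dub2) had 0.261 and 1.41 CPM in WT mESCs, so its WT libraries lay further apart than those of Usp17la. Its levels were 26.9 and 20.9 CPM with UNC0642, 10.0 and 4.90 CPM in Setdb1 KO, and 62.0 and 36.7 CPM with both. Usp17ld (Dub2a) had 0 counts in WT replicate 1 and 20 counts (0.722 CPM) in WT replicate 2. A count of 0 there allows up to 0.261 CPM by counting error alone, taking 3 counts as the limit. Usp17ld reached 12.8 and 7.84 CPM with UNC0642, 6.65 and 3.91 CPM in Setdb1 KO, and 26.3 and 16.7 CPM with both. For Usp17lc and Usp17ld the 4 conditions were also fully separated.

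Usp17le (Dub3) had the highest mean of the members in WT mESCs, with 0.784 and 1.41 CPM. It had 53.4 and 35.9 CPM with UNC0642, and 29.3 and 22.4 CPM in Setdb1 KO. In UNC0642-treated Setdb1 KO mESCs it had 73.5 and 42.4 CPM, which overlapped the UNC0642-treated libraries. Its ratio between UNC0642-treated Setdb1 KO and Setdb1 KO mESCs, 2.24, was the lowest among the members. The others ranged from 4.07 in Usp17ld to 10.4 in Usp17lb.

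All 5 members passed the filter on low counts, and edgeR fitted them beside the other features, 16245 genes and repeat subfamilies in all. The fitted log2 fold changes of the members against WT ran from 4.61 to 6.60 with UNC0642, from 3.05 to 4.71 in Setdb1 KO and from 5.67 to 8.10 with both, where the median feature was at -0.02, -0.02 and -0.01. At or above the lowest member lay 84 features (0.517%) in the first of these comparisons, 512 (3.15%) in the second and 292 (1.80%) in the third. In each comparison all 5 members had both treated libraries above both WT libraries, where over all features 13.7% with UNC0642, 17.5% in Setdb1 KO and 22.3% with both did so. The same was so of UNC0642-treated Setdb1 KO over Setdb1 KO mESCs, with 12.2% over all features. For UNC0642-treated over Setdb1 KO mESCs it held for 5 members (12% over all features), and for UNC0642-treated Setdb1 KO over UNC0642-treated mESCs for 3 members (16.3%). As the members were chosen on these counts, nothing is read from their share.

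The members did not keep the same proportions across conditions. Usp17le made up 36.8% and 48.1% of the family's counts in Setdb1 KO mESCs (95% exact Clopper-Pearson intervals 34.7% to 39.1% and 44.6% to 51.5%). Its share was 27.3% and 32.1% in UNC0642-treated mESCs and 17.7% and 20.4% (16.5% to 18.9% and 19.3% to 21.4%) in UNC0642-treated Setdb1 KO mESCs. The 3 conditions did not overlap in this share.

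Usp17lb went the other way, with 16.5% and 16.0% in Setdb1 KO, 27.7% and 19.7% with UNC0642, and 32.5% and 38.3% with both. Again the 3 conditions did not overlap. Shares of the same sum are tied to each other, so the opposite courses of Usp17le and Usp17lb are not separate results. In level, the Usp17le mean was highest with both, at 57.93 CPM against 44.65 with UNC0642 and 25.85 in Setdb1 KO. Its libraries with both overlapped those with UNC0642. Usp17ld stayed between 6.31% and 8.37% in these 6 libraries, Usp17lc between 10.5% and 18.7%, and Usp17la between 15.7% and 28.6%. Intervals cover counting error only. In WT mESCs the shares rest on 23 and 131 counts, and that of Usp17le in replicate 1 has an interval from 19.7% to 61.5%.

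**Figure D2:**
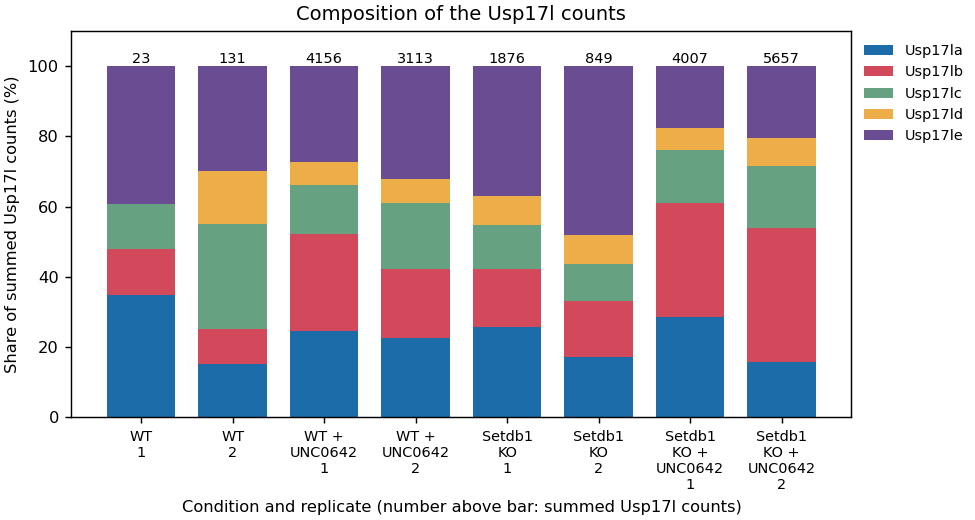
Share of each Usp17l gene in the summed Usp17l counts (vertical axis, percent) in each of the 8 libraries, with the summed count above each bar. The Usp17le share is highest in the Setdb1 KO libraries outside WT, 36.8% and 48.1%, and lowest in UNC0642-treated Setdb1 KO libraries, where Usp17lb takes 32.5% and 38.3%.

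Divided by the length of the annotated exons, levels can be set side by side between members. Per kilobase, Usp17lb was the highest in UNC0642-treated Setdb1 KO mESCs, with 86.7 and 51.0 CPM per kilobase. Usp17la (44.8 and 12.3), Usp17le (37.0 and 21.3) and Usp17lc (25.3 and 14.97) followed and overlapped one another, and Usp17ld (13.2 and 8.40) was the lowest by mean and overlapped Usp17la. In Setdb1 KO mESCs the order began with Usp17le, at 14.7 and 11.3 CPM per kilobase, above both libraries of every other member. There Usp17lb (8.38 and 4.80), Usp17la (7.68 and 3.00), Usp17lc (4.09 and 2.00) and Usp17ld (3.35 and 1.97) formed a chain in which each overlapped the next. With UNC0642 alone, Usp17lb (34.7 and 14.1) and Usp17le (26.9 and 18.1) overlapped. Below them by mean came Usp17la (18.1 and 9.52), Usp17lc (10.98 and 8.54) and Usp17ld (6.43 and 3.95), and Usp17ld overlapped no other member. These values depend on the annotated exons, and the annotation behind the counts is not given in the sources used here.

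The increases from the single treatments can be added up on the CPM scale. The sum of the family's increases over WT was 150.3 CPM with UNC0642 plus 59.7 CPM in Setdb1 KO, 210.0 CPM in all, and the increase with both was 308.6 CPM, which is 146.9% of that sum. By member it was 224.6% in Usp17lb, 163.2% in Usp17lc, 151.9% in Usp17la, 142.0% in Usp17ld and 83.2% in Usp17le. The values for Usp17la and Usp17le rest on groups that overlapped with UNC0642-treated mESCs. These percentages depended on single libraries, as shown by leaving out each of the 8 in turn, an alternative chosen after the data were seen. The family's value ranged from 97.4% without UNC0642-treated Setdb1 KO replicate 1 to 196.4% without replicate 2 of that condition, so the increase with both was slightly below the added increases in the first case and above them in the other 7. Usp17la was at 64.5% and 239.2% under the same omissions, and Usp17lb at 339.1% without UNC0642-treated replicate 1. The range was 120.7% to 205.6% in Usp17lc, 109.8% to 174.2% in Usp17ld and 60.4% to 106.0% in Usp17le. On the log2 scale the family's ratio to WT was 5.51 with UNC0642, 4.23 in Setdb1 KO and 6.54 with both. There the ratio with both was below the 2 single ratios added up, for the family and for each member. Whether the increase with both exceeded the added ones thus depended on the scale, and an interaction was not tested.

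Most counted genes within 250 kb of a member had few or no reads. The middle of the 1348 kb gap between Usp17lc and Usp17le lies beyond that distance and was not examined. Within 250 kb of a member lie 96 other annotated genes, of which 59 have a count row and 58 of these are olfactory receptors, genes of odorant sensing in nasal neurons. Of the 59, 46 had 0 counts in every library and 57 stayed at 5 counts or fewer. Olfr658, 120.7 kb from Usp17le, had at most 12 counts and was too low to test.

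Olfr613, 128.2 kb from Usp17lc, was the exception. Its counts were 220 and 431 in WT mESCs, 1433 and 1185 with UNC0642, 11698 and 2751 in Setdb1 KO, and 9316 and 10235 with both. Olfr613 rose in Setdb1 KO (log2 fold change 4.22 ± 0.73, SE in this and later fits, adjusted p = 0.03142, edgeR quasi-likelihood test with Benjamini-Hochberg adjustment over all features). In UNC0642-treated Setdb1 KO mESCs it also rose (5.28 ± 0.77, adjusted p = 0.007771, edgeR), and with UNC0642 alone the value was 1.67 ± 0.66 (adjusted p = 1.0, edgeR).

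Features were called where edgeR's adjusted p was under 0.05 and they differed by more than 10-fold, thresholds taken from the study. By this rule 0.837% of features were called higher in Setdb1 KO and 2.87% with both, and 0% with UNC0642 by edgeR, where 2.96% were higher at an unadjusted p under 0.05 and DESeq2 called 96 features. Olfr613 and the Usp17l genes took different orders. Olfr613 had 495.3 and 151.4 CPM in Setdb1 KO and 67.4 and 42.6 CPM in UNC0642-treated mESCs, whereas every Usp17l gene was higher in the latter. The Olfr613 calls were lost without WT replicate 1 or without WT replicate 2, and that in Setdb1 KO also without Setdb1 KO replicate 1.

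**Figure D3:**
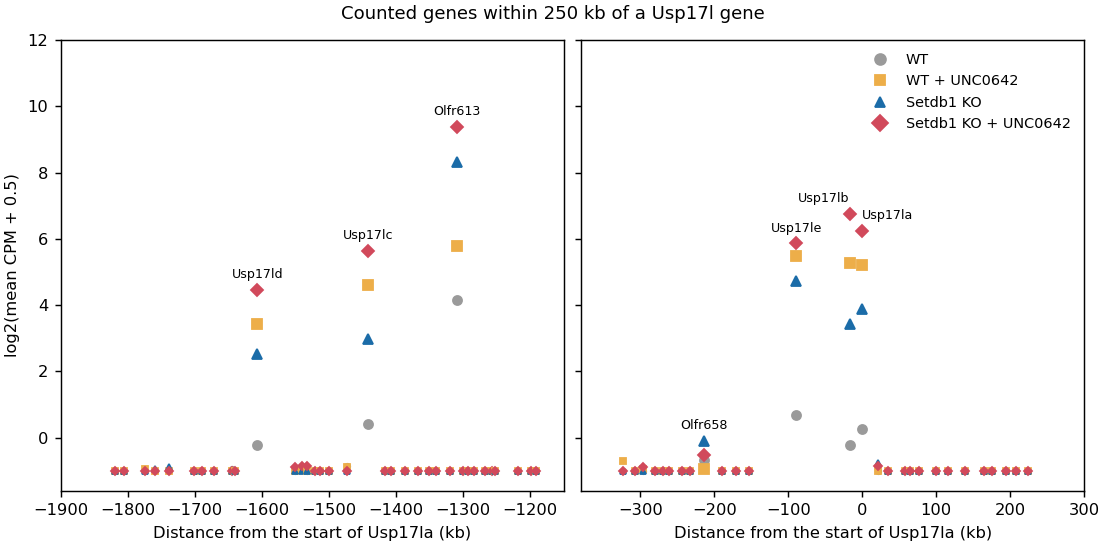
Mean level as log2(CPM + 0.5) on the vertical axis, by condition, of counted genes within 250 kb of a Usp17l gene, against the distance of their start from that of Usp17la in kilobases. Outside WT, the 5 Usp17l genes and Olfr613 stand well above the other counted genes. Among these 6, Olfr613 alone has its Setdb1 KO mean above its UNC0642-treated mean.

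The 2-cell genes were compared with the family next. The list had 30 genes, of which 29 had a row and were tested. It was chosen with earlier results of these data known. Some of its genes, such as Tdpoz1 and Tdpoz5 (mean 0 and 0.054 CPM in WT), passed the low-count filter only through conditions where they were high. The counts of called list genes are therefore a description, and nothing is read from their excess over all features. With UNC0642-treated Setdb1 KO, 23 of 29 rose by the call above (2.87% over all features), as did both repeats, MERVL-int (log2 fold change 5.39 ± 0.95 SE, adjusted p = 0.01545, edgeR) and MT2_Mm (5.02 ± 0.83, adjusted p = 0.01233, edgeR). The smallest p-values were those of Tdpoz5 (8.12 ± 1.02, adjusted p = 0.005182, edgeR), Pramef25 (5.29 ± 0.71, adjusted p = 0.006608) and Gm4027 (5.45 ± 0.77, adjusted p = 0.007034). Tdpoz5 had 0 and 3 counts in the WT libraries.

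None of the 29 was called by edgeR with UNC0642 alone or in Setdb1 KO, where 27 in each had an unadjusted p under 0.05 and were higher (2.96% and 7.07% over all features). DESeq2 called 23 and 16 of them, where it called 96 and 262 features higher in all. With the replicate number as a block, edgeR called 1 and 8 of them, where it called 22 and 235 features higher in all. The median log2 fold change of the list was 4.55 with UNC0642, 3.53 in Setdb1 KO and 5.52 with both. With Tdpoz1, at 0 in both WT libraries, held at the bound of 3 counts over those libraries, the medians were 4.55, 3.51 and 5.52. Without WT replicate 1, edgeR called 0 of the 29 with both, and without WT replicate 2, 4 of them. The 2 repeats lost their calls without either WT replicate.

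On the scale of log2 ratios of mean CPM with 0.5 added, the family sum was 5.32 above WT with UNC0642, 4.04 in Setdb1 KO and 6.34 with both. The medians of the 29 genes were 3.09, 2.46 and 4.73, and their highest values 4.80, 4.15 and 5.98. The added 0.5 CPM lowers the ratio of weakly counted genes, and the single members ran from 3.65 to 5.48, from 2.58 to 4.05 and from 4.67 to 6.96. In the edgeR fit the median member was at 5.30, 4.31 and 5.77, closer to the list medians of 4.55, 3.53 and 5.52. Between UNC0642-treated and Setdb1 KO mESCs the family sum differed by 1.28 and the median gene by 1.01, with 25 of 29 genes above 0. The exceptions were Dux, Gm4981, Spz1 and Tdpoz3. Dux encodes the transcription factor that starts the 2-cell program. Its mean was 3.02 CPM with UNC0642 and 6.94 CPM in Setdb1 KO, a log2 ratio of -1.08, with libraries that overlapped.

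**Figure D4:**
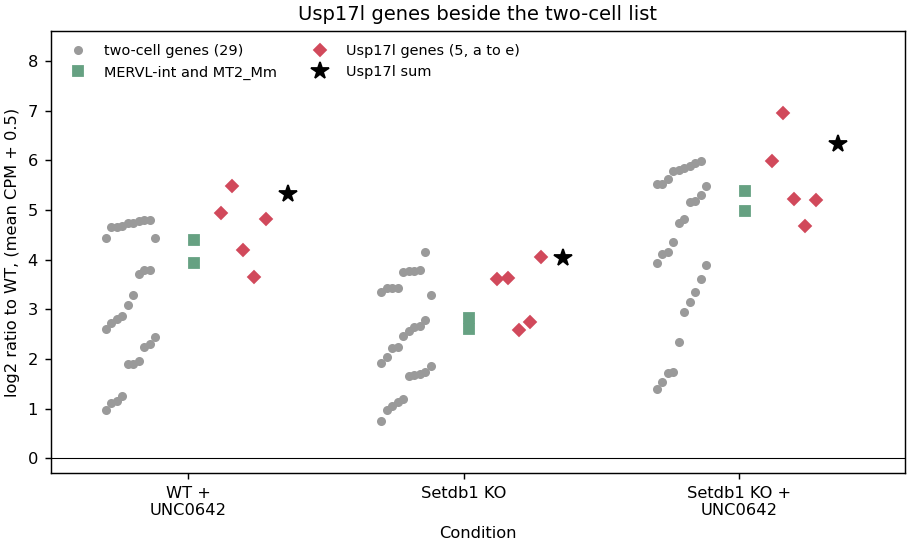
Log2 ratio to WT of mean CPM with 0.5 added (vertical axis) in 3 conditions, for 29 two-cell genes (grey circles), MERVL-int and MT2_Mm (squares), the 5 Usp17l genes from Usp17la to Usp17le (diamonds) and their sum (star). All plotted values are above 0, and the sum of the Usp17l genes lies at 5.32, 4.04 and 6.34 where the median two-cell gene lies at 3.09, 2.46 and 4.73. The added 0.5 CPM lowers single weakly counted genes more than a sum of 5 genes.

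Features were also ordered by how closely their pattern over the 8 libraries followed the family sum, as the root mean square difference of centred log2(CPM + 0.5). The 5 closest of 16240 features were Gm2022 (0.36), Zscan4f (0.40), Zscan4c (0.41), Zscan4d (0.43) and Zscan4b (0.49), where the median over all features was 2.51. All 5 belong to the 2-cell list, and of the 30 closest features 15 belonged to that list or to the 2 repeats. Among all 16240 features, the list held 29 genes beside the 2 repeats. The Zscan4 genes are copies of the same family, and sequence shared between them was not measured, so they may not be separate observations. MERVL-int was in place 10 at 0.53. The members themselves lay between 0.44 and 0.66 from their sum. All points share the 8 libraries and their depth, so this is a description only.

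Gm2022 had 4 and 72 counts in WT mESCs, 1513 and 821 with UNC0642, 649 and 251 in Setdb1 KO, and 1351 and 2922 with both. Zscan4c, a telomere-associated zinc finger gene, was at 5.14 and 14.5 CPM in WT and at 725.4 and 288.1 CPM with both. In Zscan4c, as in the family, replicate 2 was the higher one in WT and replicate 1 the higher one elsewhere.

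The other genes of the ubiquitin-specific protease (Usp) family were read from the same fit. Of 51 other Usp genes, 50 were tested. In Setdb1 KO (0.837% called higher over all features) and with both (2.87%), 1 of them was called, so nothing is read from this count about the Usp family. The gene was Usp26, an X-linked deubiquitinase gene of the testis. Usp26 had 1.05 and 1.23 CPM in WT, 3.24 and 1.51 with UNC0642, 22.8 and 16.7 in Setdb1 KO, and 30.4 and 10.9 with both. It rose in Setdb1 KO (log2 fold change 4.11 ± 0.71 SE, adjusted p = 0.03124, edgeR) and with both (4.16 ± 0.71, adjusted p = 0.01405, edgeR), and with UNC0642 was at 1.05 ± 0.66 (adjusted p = 1.0, edgeR). The call with both was lost without WT replicate 1, WT replicate 2 or UNC0642-treated Setdb1 KO replicate 1, and that in Setdb1 KO without any 1 of the 4 libraries compared.

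No other Usp gene passed the threshold. The median log2 fold changes of the 50 were -0.06 with UNC0642, -0.18 in Setdb1 KO and -0.26 with both. Usp2 (-2.12 ± 0.56, adjusted p = 0.06961, edgeR) and Usp43 (-2.68 ± 0.71, adjusted p = 0.07205, edgeR) had the next smallest p-values with both.

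Regulators of the 2-cell-like state came next. Of 23 regulators of the 2-cell-like state, 0 were called in any comparison with WT by edgeR or DESeq2, and an unadjusted edgeR p under 0.05 was given to 0 with UNC0642, 1 (lower) in Setdb1 KO and 2 (lower) with both. Setdb1, the deleted gene, is on this list and was the 1 in Setdb1 KO and 1 of the 2 with both, where the other was Ehmt2. Over all features the lower ones at that p were 0.394%, 1.63% and 7.11%. Ehmt2, which encodes G9a, was at -1.29 ± 0.47 (adjusted p = 0.1848, edgeR), and Dppa2, an activator of Dux, at 1.03 ± 0.50 (adjusted p = 0.325, edgeR) with both.

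Of 17 genes of cytokine receptor signalling, the pathway that induces Usp17la and Usp17lc in blood cells, 12 were tested and 0 called by edgeR in any comparison with WT. An unadjusted p under 0.05 was given to 1, Epor, which was lower with both (7.11% over all features). DESeq2 called 1 there, also lower, as did edgeR on the 4 libraries compared and with the replicate block. Epor, the erythropoietin receptor gene, had the smallest p (-3.46 ± 1.03, adjusted p = 0.1055, edgeR) at 18 and 119 counts in WT and 1 and 10 with both. Il3ra, a subunit of the interleukin-3 receptor, was at 2.23 ± 1.31 (adjusted p = 0.4279, edgeR) and Stat5a at 0.91 ± 0.57 (adjusted p = 0.4697, edgeR). In every condition Il3ra was higher in replicate 2 than in replicate 1. This fit has no term for the replicate number, so the SE of Il3ra includes that difference.

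Of 5 genes whose human products are known substrates of USP17, 4 were tested and 0 were called by edgeR or DESeq2 in any comparison with WT. With both, 1 was higher at an unadjusted p under 0.05 (10.9% over all features), Ddx58, which encodes the RNA sensor RIG-I. It was at 1.98 ± 0.81 (adjusted p = 0.2348, edgeR), with 9.49 and 6.50 CPM in WT and 49.4 and 13.8 with both. Cdc25a, the cell cycle phosphatase, was at -0.58 ± 0.46 (adjusted p = 0.5945, edgeR), and Rce1, a protease of prenylated proteins, at -0.07 ± 0.93 (adjusted p = 0.9835, edgeR). Rce1 too was higher in replicate 2 in every condition, a difference that its SE includes.

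Markers of pluripotent cells summed to between 4527 and 6696 CPM in all 8 libraries (10 of 10 listed genes with a row). Primitive endoderm markers (6 genes) were at 56.7 and 58.9 CPM in UNC0642-treated mESCs and between 10.6 and 39.8 in the others. Primed and germ layer markers (6 genes) were at 342.4 and 244.8 CPM in Setdb1 KO, 141.3 and 187.2 with both, and between 52.6 and 78.6 elsewhere. Haematopoietic markers (7 genes) were at 10.7 and 13.0 CPM with UNC0642 and 8.82 and 12.9 with both, against 1.92 to 7.48 in the libraries without it, with Hbb-bt at 0 throughout. Trophectoderm markers (7 genes) lay between 18.8 and 110.7 CPM. These values are sums, and which genes made them up was not examined. Whether cells of these types were present, or had a part in the Usp17l levels, was not tested.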

How the data were processed

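Poly(A) RNA from mESCs was sequenced in 4 conditions with 2 biological replicates each, and grouped by their labels. The authors trimmed reads with Trim Galore 0.3.7, mapped them with TopHat2 to mm10 and counted them with TEtranscripts at default parameters. The deposited files hold unnormalized counts for genes and repeat subfamilies. The gene annotation used is not given in the sources used here.

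Counts were fitted with edgeR 4.0.16 (R 4.3.3; quasi-likelihood test, TMM, filterByExpr with minimum count 10 and minimum total 15, prior count 0.125) over all 8 libraries, with 1 coefficient per condition and Benjamini-Hochberg adjustment over 16245 features. Effective library sizes were the total counts of the features that passed the filter, times factors of 0.81 to 1.20. A count of 3 was the floor of detection, 0.108 to 0.311 CPM by library. Only the edgeR fit was tested on simulated counts, for UNC0642-treated Setdb1 KO over WT mESCs. The simulation had 1 fixed spread for all features and no effect of the replicate number. Sequence and locus comparisons used Python 3.11.15 and Biopython 1.88. Alternatives were DESeq2 1.42.0, other scalings, filters and sample sets, a replicate block, thinning and leaving out each library. The p-values measure the spread between these cultures.

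Members, gene lists and tests were chosen with earlier results of these data known. Named genes were all Usp17l rows, Setdb1, neighbours with at least 10 counts in a library, the 3 features of each list with the smallest p in UNC0642-treated Setdb1 KO over WT mESCs, and the 5 features most alike in pattern. Dux, and any gene behind a count of 5 or fewer were named after their values were seen.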

Additional observations from a re-analysis of the deposited data

How the results depend on the processing

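All 20 alternative values of the family's log2 ratios and all 100 of the members' fold changes, leaving out no library, stayed within the spread between replicates. The 28 counts of called features moved by over 1.5 times in 11 cases and the 147 list counts in 12. With UNC0642, where the edgeR count was 0, DESeq2 called 96 features, no filter 46 and the replicate block 22. The 2-cell genes among them were 23, 14 and 1, and the 2-cell repeats 2 with DESeq2 and 2 with no filter. In Setdb1 KO, 136 features became 75 with total counts, 264 with DESeq2, 205 on the 4 libraries compared and 237 with the replicate block. The 0 2-cell genes there became 16 with DESeq2, 12 on 4 libraries, 10 with no filter and 8 with the block. With both, 497 features became 778 with the block, and cytokine signalling genes went from 0 to 1 (lower) with DESeq2, on 4 libraries and with the block. Between UNC0642-treated Setdb1 KO and Setdb1 KO mESCs, 0 became 58 with DESeq2, 5 with no filter and 15 with the block. The cause was not tested.

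Replicate numbers are shared by the conditions, but they are only 2 numbers and nothing in the labels ties them to a shared day. Deviations of same-numbered libraries correlated at 0.374 to 0.714 over 6 pairs of conditions, a hint from the data. With the replicate block the family's log2 ratios were 5.59, 4.31 and 6.58 over WT and 2.27 over Setdb1 KO, against 5.51, 4.23, 6.54 and 2.31 without it.

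Leaving out 1 library at a time, the family's log2 ratio of mean CPM ranged from 5.02 to 6.26 with UNC0642. It ranged from 3.74 to 4.98 in Setdb1 KO, 5.95 to 7.28 with both and 1.72 to 2.74 with both over Setdb1 KO. The edgeR fits that follow assumed that a lone sample varies like the other groups. Called features ranged from 0 to 2 with UNC0642, 0 to 155 in Setdb1 KO (0 without either WT library), 0 to 495 with both (0 without WT replicate 1, 55 without WT replicate 2) and 0 to 0 between the KO conditions. Of 2-cell genes 0 to 5 were called in Setdb1 KO and 0 to 25 with both, and of the 2 repeats 0 to 2 with both. Other Usp genes and neighbouring genes gave 0 to 1 in Setdb1 KO and with both. Without WT replicate 2 the log2 fold change of Usp17lc was 6.50 with UNC0642, 4.80 in Setdb1 KO and 7.54 with both, and that of Usp17ld 10.7, 9.70 and 11.7, its remaining WT library having 0 counts. Usp17la with both was at 5.51 without UNC0642-treated Setdb1 KO replicate 1 and 7.37 without replicate 2. At 23 counts of the family in WT replicate 1, the depth limits every ratio to WT.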

Other observations

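Several levels differed between the replicate numbers in all 4 conditions. Fibroblast markers (6 of 6 listed genes with a row) summed to between 3.90 and 6.33 CPM in the 4 libraries numbered 1 and between 16.0 and 20.6 CPM in the 4 numbered 2. Rce1 was at 7.32, 5.31, 7.16 and 3.94 CPM in the libraries numbered 1, in the order WT, UNC0642-treated, Setdb1 KO and both, and at 20.4, 19.8, 18.0 and 22.3 CPM in those numbered 2. Il3ra was at 1.22, 1.32, 2.67 and 3.01 CPM against 6.06, 6.40, 18.9 and 31.6 CPM, higher in number 2 in every condition and in the same order of conditions within each number. The Usp17l sum did not take that form, being higher in replicate 2 in WT mESCs and higher in replicate 1 in the other 3 conditions.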
